A study of Homo sapiens with 8 samples.

Results

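The small nucleolar RNA host genes (SNHG) of the human HAP1 line were examined in BCDIN3D knockout and wild-type cells. The members were all rows of the RNA-seq count tables whose symbol is SNHG followed by a number, which gave 21 genes, with GAS5, ZFAS1 and EPB41L4A-AS1 added by name. That made 24 of the 57996 counted symbols. HAP1 is a near-haploid line derived from a chronic myelogenous leukaemia. The knockout libraries came from 1 clone, clone 11, which the labels enter under an shRNA tag, and the wild-type libraries from HAP1 cells labelled WT. How the knockout was made is not given, and an effect of the lost gene and a difference between clones cannot be told apart. All cells were cultured for 48 h in IMDM with 10% serum and antibiotics, and both stranded total RNA and small RNA libraries were made from each RNA. Each group had 2 libraries per assay, called biological replicates by the submitters and sharing a pair of dates in their labels. Nothing says that the cultures were independent, and the p-values below cover only how far these libraries differ, which may be technical.

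Host genes of this series are transcribed by RNA polymerase II and spliced. Box C/D or box H/ACA small nucleolar RNAs (snoRNAs), which guide methylation and pseudouridylation of ribosomal RNA, are cut from their introns. The spliced exons of several hosts, GAS5 and SNHG1 among them, have short or no open reading frames and are degraded by nonsense-mediated decay (NMD) in translating cells. Some start with a terminal oligopyrimidine (TOP) tract, the feature by which mTOR signalling controls translation of ribosomal protein messages. BCDIN3D itself is a methyltransferase that acts on the 5′ end of histidine tRNA.

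Total counts lay between 20065041 and 21416336 in the knockout and between 20728819 and 24415272 in the wild-type RNA-seq libraries. BCDIN3D stood at 1.56 and 2.71 CPM (CPM scales each count to a common library total, after TMM normalisation) in knockout, against 7.40 and 4.90 CPM in wild-type, a log2 fold change of -1.52 ± 0.24 (SE, edgeR adjusted p = 2.06e-05). Of 10 blood markers, 9 had at most 8 counts in any library. KIT, a receptor of blood progenitors, was the exception, with 17 and 28 counts in knockout and 225 and 271 in wild-type. The fusion partner genes BCR (29.4 ± 1.58 CPM in knockout and 28.9 CPM on average in wild-type) and ABL1 were counted in both groups. Of the mesenchymal markers VIM was higher in knockout (log2 fold change 0.28, edgeR adjusted p = 0.000847), while CDH2 and FN1 had 0.04 and 0.01 and were not called. Of the epithelial markers KRT8 (-1.08), KRT18 (-0.28) and EPCAM (-2.29) were lower in knockout (edgeR adjusted p = 8.61e-08, 0.0471 and 0.00798), and CDH1 had at most 1 count. The part of these differences in the values of the hosts was not tested.

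TOP starts lie at the first bases of a transcript, so the sequence around an annotated start is shown. RefSeq held it for 19 of the 24 members (GRCh38.p14). A start on C that runs on to at least 4 bases of only C or T was present in 6 of the 19 (31.6%) and in 5.45% of the 27305 genes of the RefSeq promoter table. The letters TATAA lay between 45 and 16 bases before the start in 6 members (31.6%) and in 4.42% of all promoters. On the opposite strand (TTATA, which overlaps TATAA in ZFAS1) the window matched in 1 member and in 1.96% of all promoters. Both features together occurred in 5 members, SNHG12, SNHG5, SNHG7, SNHG19 and ZFAS1, and in 0.139% of all promoters. The features were chosen after the letters were seen, a match is a description of these letters, and the annotated start need not be the one used in HAP1. For SNHG12 and ZFAS1 the start shown lies 1110 and 464 bases downstream of the outer end of the annotated gene. Shown are 50 bases before and 50 from the start of the one host that passed the test (GAS5), the 5 with both features, and SNHG1. Capitals mark TATAA and the C/T run at the start, where present.
GAS5 (chr1:173868996-173869095, minus strand): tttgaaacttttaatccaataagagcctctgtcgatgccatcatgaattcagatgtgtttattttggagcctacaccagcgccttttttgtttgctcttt
SNHG12 (chr1:28581824-28581923, minus strand): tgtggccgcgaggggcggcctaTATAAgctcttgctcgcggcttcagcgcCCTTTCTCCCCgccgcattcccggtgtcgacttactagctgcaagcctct
SNHG5 (chr6:85678684-85678783, minus strand): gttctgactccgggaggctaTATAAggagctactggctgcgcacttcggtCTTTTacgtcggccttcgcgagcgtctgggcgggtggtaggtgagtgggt
SNHG19 (chr16:2155309-2155408, minus strand): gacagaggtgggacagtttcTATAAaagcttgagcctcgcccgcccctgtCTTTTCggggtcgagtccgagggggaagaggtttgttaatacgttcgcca
SNHG7 (chr9:136728135-136728234, minus strand): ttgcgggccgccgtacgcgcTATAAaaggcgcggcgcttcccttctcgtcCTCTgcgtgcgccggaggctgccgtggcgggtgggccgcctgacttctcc
ZFAS1 (chr20:49278592-49278691, plus strand): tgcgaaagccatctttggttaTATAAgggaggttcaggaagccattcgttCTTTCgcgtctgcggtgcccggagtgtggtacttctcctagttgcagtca
SNHG1 (chr11:62855836-62855935, minus strand): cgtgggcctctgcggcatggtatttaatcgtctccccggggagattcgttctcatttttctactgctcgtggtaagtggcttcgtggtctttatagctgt
GAS5 and SNHG1 had neither feature at the annotated start. SNHG1 started on C with a run of 3 C or T bases, short of the 4 required, and GAS5 started on A. The 5 hosts with both had fitted log2 fold changes on both sides of 0, between -0.19 for SNHG12 and 0.10 for ZFAS1. GAS5 and SNHG1, with neither, had -0.21 and -0.14. The other hosts with neither also lay on both sides of 0, between -0.24 for EPB41L4A-AS1 and 0.09 for SNHG20.

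The 24 hosts together were slightly lower in the knockout clone in both libraries, though only GAS5 passed the threshold. Their summed level was 1633 and 1565 CPM in knockout, against 1772 and 1680 CPM in wild-type, and the groups did not overlap. The difference of the means, knockout minus wild-type, was -7.34% of the wild-type mean (exact two-sided permutation p = 0.333, the smallest that 2 against 2 libraries allow). Without GAS5 the sums were 1345 and 1300 CPM in knockout and 1443 and 1370 CPM in wild-type, still without overlap. The hosts took a small share of all counts, 0.161% and 0.155% in knockout and 0.178% and 0.170% in wild-type.

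**Figure D1:**
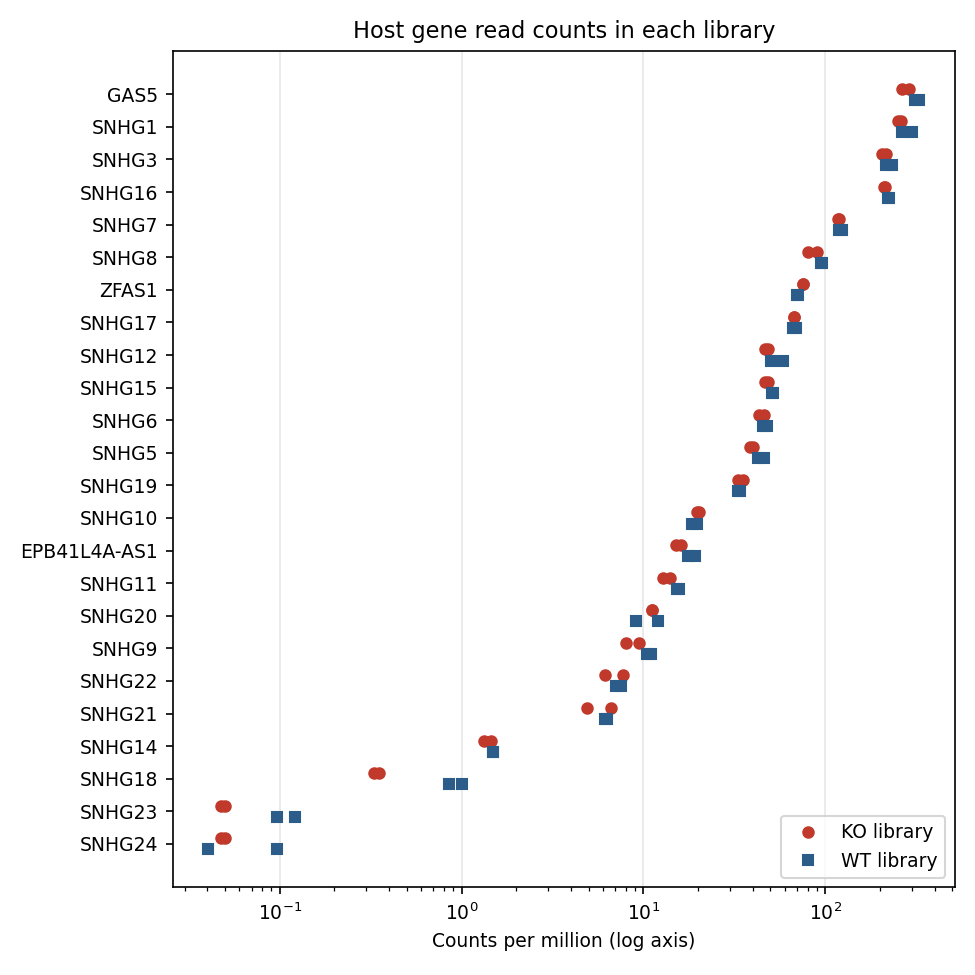
CPM of each host gene in each library, on a log axis, with knockout (red circles) above wild-type (blue squares) and 1 point per library. The hosts spread from under 0.1 CPM for SNHG24 to 329 CPM for GAS5, and the distance between groups is small beside the distance between genes.

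Counts were concentrated in few hosts. GAS5, SNHG1, SNHG3 and SNHG16 held 60.4% of the counts of all members, and with SNHG7, SNHG8, ZFAS1 and SNHG17 the share was 81.4%. Exon lengths are not in the sources used here, so these are read numbers and not levels per length. At the other end SNHG23 had 1 and 1 counts in knockout and 2 and 3 in wild-type, and SNHG24 had 1 and 1 counts in knockout and 2 and 1 in wild-type. RefSeq lists both symbols as synonyms of MEG8. They did not reach the count filter, so 22 of the 24 members were tested.

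Of the 22 tested members 0 were higher and 1 was lower in knockout (edgeR, adjusted p under 0.05 over all 16233 tested genes). Over all tested genes 6.56% were called, 3.06% higher and 3.5% lower. A date block in the model gave 1 lower member as well, against 4.83% of all genes. An unadjusted p below 0.05 was found for 6 members, each fitted below 0: GAS5, SNHG18, SNHG8, SNHG12, SNHG1 and EPB41L4A-AS1. That is 27.3% of the members tested, and 16.7% of all tested genes had such a p in either direction. DESeq2 called 0 members in either direction. Its share of all tested genes called is not given here, for this or for the DESeq2 counts below.

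Although single hosts rarely passed, their fitted values leaned one way. Of the 22 tested hosts 18 had a fitted log2 fold change below 0, with a median of -0.10, while 49.6% of all tested genes lay below 0, with a median of 0.00. At both dates the knockout library was below its wild-type partner in 14 hosts, and above it in 1. Over all 16233 tested genes 5104 (31.4%) were below at both dates and 5189 were above at both. Both knockout libraries lay below both wild-type libraries in 12 of the 22 hosts (54.5%), against 21.8% of all tested genes, and above in 1 host, against 23.5%. Among the 17 hosts with a mean of at least 10 CPM, 9 did not overlap on the low side, against 19.0% of the genes at that level, and 1 on the high side, against 27.7%. Under library-size and under RLE scaling 18 hosts also lay below 0. The median of all tested genes was -0.025 under library-size scaling. The hosts share libraries and their scaling, so these counts are a description with no test.

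**Figure D2:**
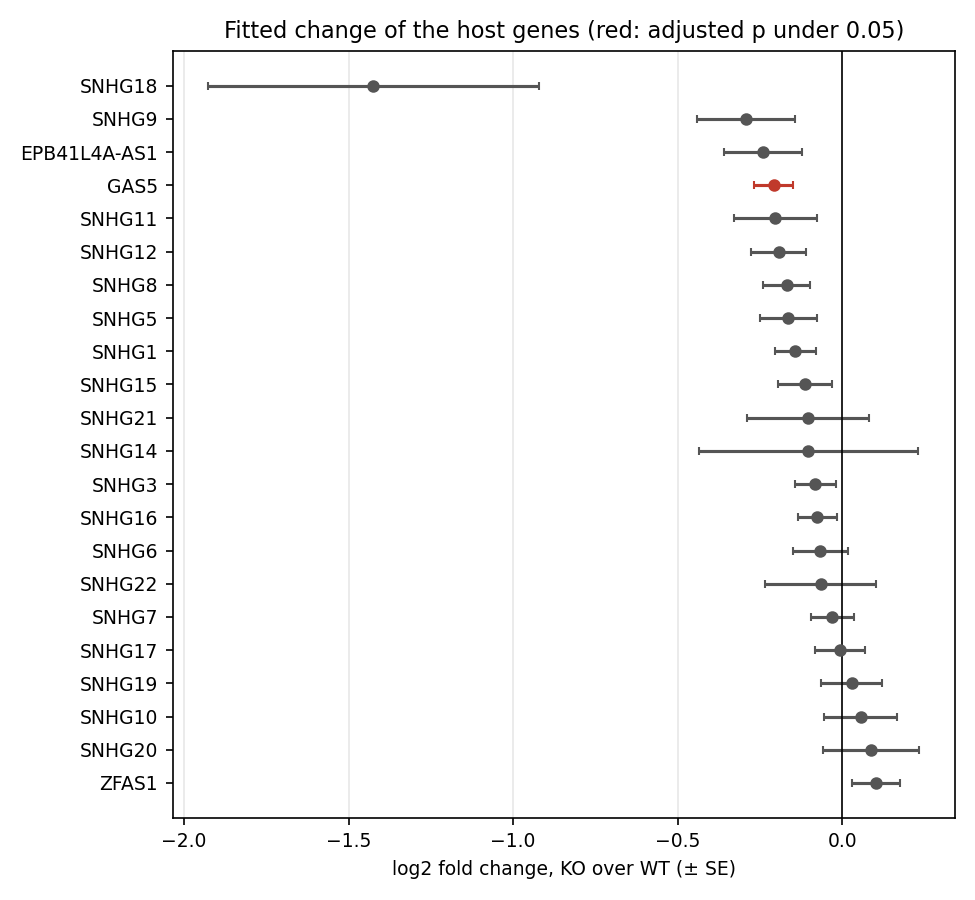
Fitted log2 fold change of each tested host, knockout over wild-type, with bars of 1 SE from the edgeR fit. Red marks the one gene called, GAS5 at -0.21. SNHG18 lies far left at -1.42 with a wide bar, and 4 hosts lie right of 0.

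GAS5, a transcript named for its accumulation in growth-arrested cells and the host of a run of box C/D snoRNAs, fell in knockout. It had 6096 and 5269 counts in knockout, against 6847 and 7665 in wild-type, which is 288 and 265 CPM in knockout and 329 and 310 CPM in wild-type. Both knockout libraries were below both wild-type libraries. The log2 fold change was -0.21 ± 0.06 (edgeR adjusted p = 0.0197), 0.865 of the wild-type level, and the log2 ratios at the earlier and the later date were -0.19 and -0.23. The call was lost with DESeq2 (adjusted p = 0.0595). It was also lost without knockout replicate 2 (log2 fold change -0.15, edgeR adjusted p = 0.239), without wild-type replicate 1 (-0.17, edgeR adjusted p = 0.414) and without wild-type replicate 2 (-0.25, edgeR adjusted p = 0.0754).

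GAS5 (chromosome 1, 173863901 to 173869045, GRCh38, minus strand) overlaps the antisense transcript GAS5-AS1 and the start of the zinc finger gene ZBTB37. GAS5-AS1 had 66 and 71 counts in knockout and 86 and 134 in wild-type, a log2 fold change of -0.52 ± 0.21 (edgeR adjusted p = 0.165). ZBTB37 had 813 and 746 counts in knockout and 805 and 981 in wild-type (log2 fold change -0.05 ± 0.09). The strand setting of the counting is not given in the sources used here, so reads of GAS5 and of an overlapping gene may not have been kept apart. Within 1 Mb of GAS5, 0 of 8 other tested genes were called, and their median log2 fold change was -0.11. The centromere gene CENPL (-0.19 ± 0.10) lay close to the value of GAS5, while the peroxiredoxin gene PRDX6 (0.07 ± 0.06) did not share its sign.

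GAS5 is the one tested host on the long arm of chromosome 1, taken by start position. Of 561 tested genes there 53 were called lower (9.45%) and 6 higher, with a median log2 fold change of -0.09. Among the other 12634 tested genes with a position 451 were called lower (3.57%) and 423 higher, with a median of 0.01. The part of this position in the value of GAS5 was not tested.

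**Figure D3:**
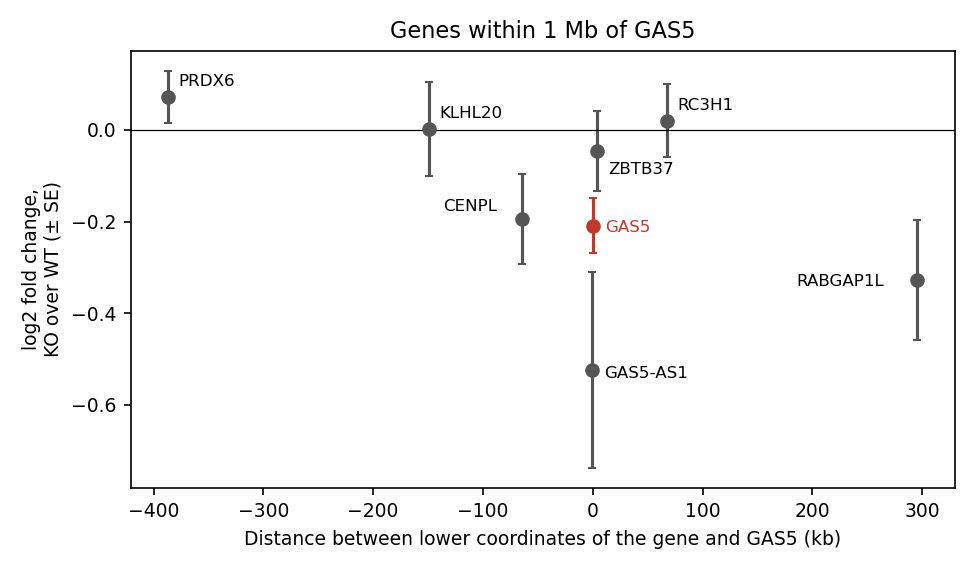
Fitted log2 fold change, knockout over wild-type, with bars of 1 SE, against the distance in kb from GAS5 (red) for tested genes within 1 Mb, not all of which are drawn. GAS5 at -0.21 sits among values between -0.52 for GAS5-AS1 and 0.07 for PRDX6.

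The other abundant hosts of box C/D snoRNAs missed the threshold. SNHG1, host of a run of C/D snoRNAs including SNORD30, was at 263 and 250 CPM in knockout and at 302 and 264 CPM in wild-type (log2 fold change -0.14 ± 0.06, edgeR adjusted p = 0.206). Its groups did not overlap, though knockout replicate 1 and wild-type replicate 2 were nearly level, and the log2 fold change was -0.046 without wild-type replicate 1 and -0.23 without wild-type replicate 2. SNHG16, host of the SNORD1 family, was at 214 and 210 CPM in knockout and at 222 and 225 CPM in wild-type (-0.08 ± 0.06, edgeR adjusted p = 0.603), also without overlap. SNHG5, the SNORD50 host, had 40.2 and 38.6 CPM in knockout and 45.9 and 42.6 CPM in wild-type (-0.17 ± 0.09).

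ZFAS1, which lies beside ZNFX1 and carries the SNORD12 snoRNAs, was the one host with both knockout libraries above both wild-type libraries. It stood at 75.3 and 75.4 CPM in knockout, against 69.9 and 70.5 CPM in wild-type. Replicates were close within each group, and the log2 fold change was 0.10 ± 0.07 (edgeR adjusted p = 0.561). SNHG19, the SNORD60 host, SNHG10, the SCARNA13 host, and SNHG20, the SCARNA16 host, were also fitted above 0 (0.03 ± 0.09, 0.05 ± 0.11 and 0.09 ± 0.15), with overlapping groups.

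Hosts of box H/ACA snoRNAs gave a similar picture. SNHG3, host of the SNORA73 pair, was at 217 and 206 CPM in knockout and at 232 and 215 CPM in wild-type (log2 fold change -0.08 ± 0.06, and -0.028 without wild-type replicate 1), and the groups overlapped. SNHG8, which holds SNORA24, was at 89.8 and 80.2 CPM in knockout and at 96.1 and 95.3 CPM in wild-type (-0.17 ± 0.07, edgeR adjusted p = 0.187). SNHG8 passed the threshold when knockout replicate 1 was left out (-0.25, edgeR adjusted p = 0.0312), and its value was -0.091 without knockout replicate 2 (edgeR adjusted p = 0.782). Without wild-type replicate 1 or 2 its edgeR adjusted p was 0.556 or 0.474. SNHG7 (119 and 118 CPM in knockout, 123 and 119 CPM in wild-type) and SNHG17, host of the SNORA71 family (67.6 and 67.3 CPM in knockout, 68.8 and 66.8 CPM in wild-type), had log2 fold changes of -0.03 ± 0.07 and -0.01 ± 0.08. SNHG12, which holds both classes, was at 46.6 and 48.7 CPM in knockout and at 58.6 and 50.6 CPM in wild-type (-0.19 ± 0.08, edgeR adjusted p = 0.201).

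EPB41L4A-AS1, the SNORA13 host antisense to EPB41L4A, was at 16.1 and 15.0 CPM in knockout, against 19.3 and 17.7 CPM in wild-type. The groups did not overlap, and the log2 fold change was -0.24 ± 0.12 (edgeR adjusted p = 0.284). SNHG9 (9.51 and 7.99 CPM in knockout, 10.5 and 11.0 CPM in wild-type) had a log2 fold change of -0.29 ± 0.15 (edgeR adjusted p = 0.313), and SNHG11 one of -0.20 ± 0.13. SNHG18, which carries SNORD123, had the lowest fitted value on few reads. It had 7 and 7 counts in knockout, against 21 and 21 in wild-type, a log2 fold change of -1.42 ± 0.50 that missed the threshold with edgeR (adjusted p = 0.0839) and with DESeq2 (adjusted p = 0.546). SNHG14, the host of the imprinted SNORD115 and SNORD116 clusters on chromosome 15, had 28 and 29 counts in knockout and 31 and 37 in wild-type (-0.10 ± 0.33). The other hosts (SNHG6, SNHG15, SNHG21 and SNHG22) lay between -0.11 and -0.07. Standard errors over the tested hosts ran from 0.06 to 0.50, so small differences in the weakly counted hosts were not detectable at this depth.

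Other genes overlap several hosts, among them RCC1 (SNHG3), TRNAU1AP (SNHG12), FSD2 (SNHG21), SEC14L1 (SNHG20) and MYO5B (SNHG22). None of the tested overlapping genes was called, MYO5B coming nearest (log2 fold change -0.25, edgeR adjusted p = 0.0508). How overlapping reads were assigned is not given, so the counts of these hosts are uncertain to that extent. Genes now in the SNHG series are also present under older symbols that the selection did not take: LRRC75A-AS1 (now SNHG29) had 506 and 488 CPM in knockout and 524 and 525 CPM in wild-type (log2 fold change -0.08 ± 0.06). C6orf48 (now SNHG32) had 0.13 ± 0.09 and LINC00888 (now SNHG33) 0.02 ± 0.15. The noncoding host DANCR had 196 and 219 CPM in knockout and 220 and 201 CPM in wild-type (-0.02 ± 0.06), and 0 of these 4 genes were called.

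The snoRNAs inside the hosts were counted as rows of their own, and none was called. RefSeq places 135 snoRNA or small Cajal body RNA genes within the 22 hosts that have a position (strand was not available for them), and 128 of these were rows of the count table. No count was seen for 103 of the 128. The SNHG14 region alone holds 83 of the 128 rows, and outside it 17 of 45 had at least 10 counts over the 4 libraries. By class and outside SNHG14, 7 of 26 C/D snoRNAs (median annotated length 75 bases), 8 of 15 H/ACA snoRNAs (136 bases) and 2 of 4 small Cajal body RNAs reached 10 counts. With SNHG14 included it was 7 of 109 C/D snoRNAs. Whether the shorter length lowered the recovery of C/D snoRNAs in these libraries was not tested.

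**Figure D4:**
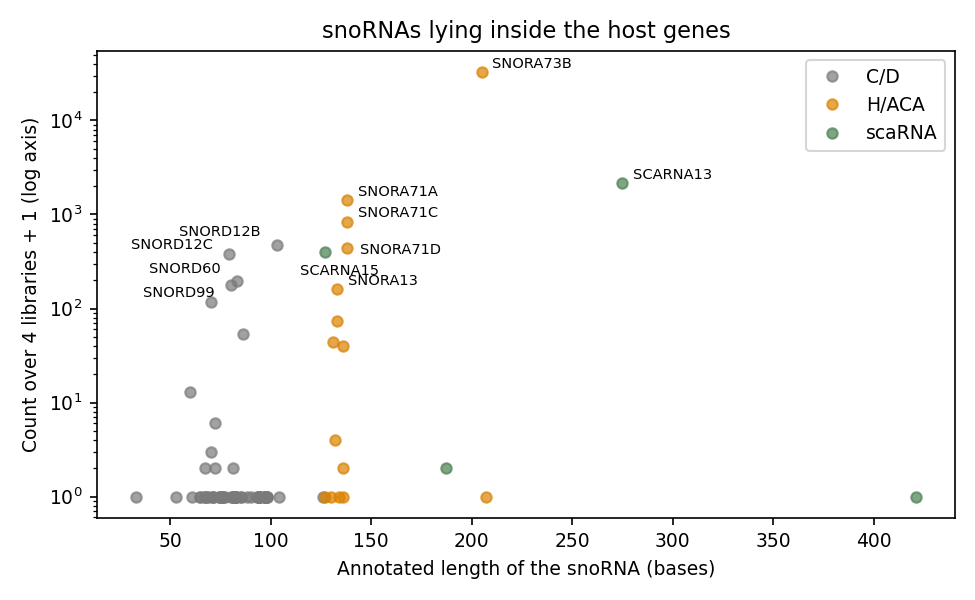
Count over the 4 RNA-seq libraries plus 1, on a log axis, against annotated length for each snoRNA lying inside a host, coloured by class, with names for those with most counts. C/D snoRNAs lie mostly at a count of 0, and SNORA73B stands far above the rest.

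Of 15 tested snoRNAs 0 were higher and 0 lower with edgeR and 0 were called with DESeq2. An unadjusted edgeR p under 0.05 was found for 2 of the 15 and for 16.7% of all tested genes. Their median log2 fold change was 0.04, and 6 of the 15 lay below 0. SNORA73B (U17b), an H/ACA RNA needed for cleavage of the ribosomal RNA precursor, was the most abundant, with 358 and 417 CPM in knockout and 362 and 378 CPM in wild-type (0.07 ± 0.06). Its related copy SNORA73A, also in SNHG3, was listed at 0 in every library, so reads of the pair may not have been assigned evenly. SCARNA13 in SNHG10 had 25.4 and 28.2 CPM in knockout and 23.2 and 22.8 CPM in wild-type (0.22 ± 0.10, edgeR adjusted p = 0.250), without overlap of the groups. SNORA71D in SNHG17 had 5.39 and 6.28 CPM in knockout and 4.85 and 4.05 CPM in wild-type (0.39 ± 0.19, edgeR adjusted p = 0.289).

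SNORA71A was at 15.6 and 20.4 CPM in knockout and at 17.3 and 13.6 CPM in wild-type (log2 fold change 0.22 ± 0.13), and SNORA71C (0.04 ± 0.15) overlapped as well. These copies are closely related and their counts uncertain. In ZFAS1, SNORD12B (0.04 ± 0.19) and SNORD12C (0.00 ± 0.21) had overlapping groups, and SCARNA15 in SNHG21 had 4.54 and 3.77 CPM in knockout and 5.62 and 4.62 CPM in wild-type (-0.29 ± 0.20). GAS5 offered little to set beside its own fall. Of its 11 annotated snoRNAs 7 were rows, and SNORD75 had the most reads, 2 and 5 counts in knockout and 2 and 3 in wild-type.

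Lists of genes with related roles were set beside the hosts (all calls by edgeR at an adjusted p under 0.05). Fitted values lay below 0 in 81.8% of the SNHG hosts and 49.6% of all tested genes. Shares were 73.7% for snoRNA particle proteins, 67.7% for protein-coding snoRNA hosts, 66.7% for NMD target stress genes and 56.5% for NMD factors. For TOP translation regulators and ribosomal protein genes they were 42.1% and 36.5%. Of 85 tested cytosolic ribosomal protein genes, the best-known TOP genes, 3 were higher and 0 lower, among them RPS15 (log2 fold change 0.25 ± 0.07) and RPL13 (0.18 ± 0.05). That is 3.53% of the list, close to the 3.06% of all tested genes called higher. The list's median was 0.03. Both knockout libraries lay above both wild-type libraries in 37 of the 85 (43.5%), against the 23.5% of all genes given above, and below in 5. With library-size scaling the list's median was 0.00 with 1 gene called. The median of all tested genes was then -0.025, against 0.00 in the main fit. DESeq2 called 0 genes of the list, and the date block gave 7 higher. Over all tested genes the block called 4.83% lower, against 3.5% without it. Its share of all genes called higher is not given here. The number of ribosomal protein genes called also varied when single libraries were left out. The difference between these genes and the hosts was not tested.

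Of 31 protein-coding snoRNA hosts 0 were higher and 2 lower (6.45%, against 3.5% of all tested genes), with a median log2 fold change of -0.03. The date block gave 3 lower. TAF1D, a subunit of the RNA polymerase I factor SL1, was at 147 and 121 CPM in knockout and at 176 and 154 CPM in wild-type (-0.30 ± 0.08, edgeR adjusted p = 0.0269). RABGGTB, a subunit of the enzyme that attaches lipid anchors to Rab proteins, was at 162 and 159 CPM in knockout and at 204 and 188 CPM in wild-type (-0.29 ± 0.06, edgeR adjusted p = 0.00122). Neither group overlapped the other in these genes, and both calls were kept by DESeq2. Leaving out wild-type replicate 1 ended both calls (edgeR adjusted p = 0.274 for TAF1D and 0.164 for RABGGTB), leaving out knockout replicate 2 ended that of TAF1D (edgeR adjusted p = 0.234), and 3 genes of the list were lower when knockout replicate 1 was dropped.

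Among 19 proteins of snoRNA particles and their assembly 0 were called in either direction, with a median log2 fold change of -0.03 (DESeq2 called 0). Of the 19, 3 had an unadjusted edgeR p under 0.05, as did 16.7% of all tested genes. The nucleolar phosphoprotein gene NOLC1 (-0.14 ± 0.06, edgeR adjusted p = 0.174) passed with the date as a block (blocked adjusted p = 0.0395). GAR1, of the H/ACA core, had -0.26 ± 0.11. Of 23 NMD factors 0 were higher and 2 lower (8.70%, against 3.5% of all tested genes), with a median of -0.03. SMG5, an adaptor that brings decay enzymes to phosphorylated UPF1, was at 178 and 202 CPM in knockout and at 255 and 250 CPM in wild-type (-0.41 ± 0.06, edgeR adjusted p = 2.51e-06). Like GAS5, SMG5 lies on the long arm of chromosome 1.

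Of 15 stress genes known as NMD targets 0 were called by edgeR or DESeq2, with a median log2 fold change of -0.05. An unadjusted edgeR p under 0.05 was found for 2 of the 15 and for 16.7% of all tested genes. GADD45B (0.40 ± 0.16) and NAT9 (-0.19 ± 0.09) had the smallest p. Of 19 regulators of TOP translation 0 were called by either tool, with 1 at an unadjusted p under 0.05, RPTOR of the mTOR complex (-0.17 ± 0.08, edgeR adjusted p = 0.247), and a median of 0.02.

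**Figure D5:**
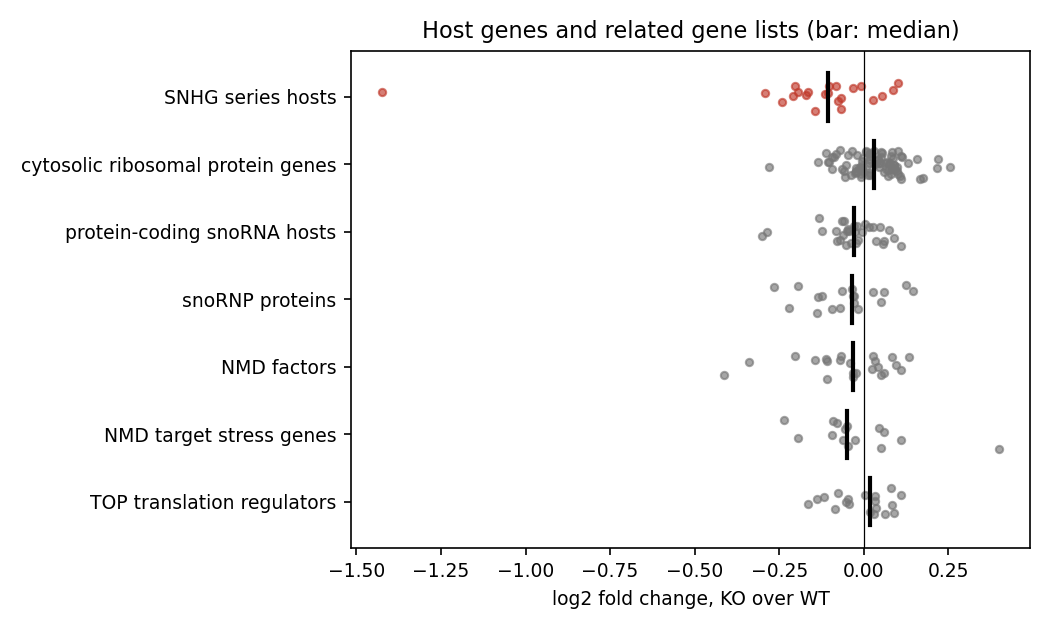
Fitted log2 fold change, knockout over wild-type, of each tested gene (1 point per gene) in the SNHG series hosts (red) and 6 related lists (grey), with the median as a black bar. The median is -0.10 for the hosts, 0.03 for ribosomal protein genes and between -0.05 and 0.02 for the other lists.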

How the data were processed

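RNA-seq and small RNA-seq covered 2 knockout and 2 wild-type libraries each. The authors deposited raw counts per gene symbol and per mature microRNA, without normalisation. Per the submitters' processing notes, FastQC, cutadapt, STAR, SAMtools, featureCounts and Subread were used with hg38. The sources used here do not give versions, annotation or strand setting. Replicates differed beyond sampling noise (chi-square per degree of freedom 4.69 in knockout and 3.95 in wild-type), so each was counted as its own sample.

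The whole RNA-seq table was analysed in R 4.3.3 with edgeR 4.0.16 (filterByExpr, minimum count 10; TMM; robust quasi-likelihood F test), with Benjamini-Hochberg adjustment over 16233 genes and a threshold of 0.05. The biological coefficient of variation was 5.53%. The SE was taken as the absolute log2 fold change over root F. CPM use TMM-scaled library sizes. The fit was tested on simulated data. Alternatives were DESeq2 1.42.0, RLE and library-size scaling, no filter, the date as a block and leaving out each library. Labels give knockout and wild-type libraries the same 2 dates, which pairs them (r = 0.14 for the deviations of libraries of 1 date).

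Positions, snoRNA locations and start sequences are from RefSeq (GRCh38.p14), matched by symbol. RefSeq gave no strand for the snoRNAs, which were placed in hosts by position. The labels mention no molecular identifiers, so precision covers counting error and library spread only. Members, lists and the naming rule (called members and snoRNAs, the 8 with most reads, and per list up to 3 called each way or the 2 of smallest p) were chosen with earlier results of these data known. SNHG18 and the other hosts outside this rule are named so that every member is accounted for. Some genes that the rule or the neighbourhood of GAS5 would give are not reported here, though they stay in the counts and medians.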

Additional observations from a re-analysis of the deposited data

How the results depend on the processing

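The number of hosts called lower was 1 and became 0 with DESeq2 and lay between 0 and 2 when single libraries were left out (0 without knockout replicate 2, wild-type replicate 1 or wild-type replicate 2, and 2 without knockout replicate 1). The cause was not tested, but leaving out a library also leaves 1 sample in a group, assumed to vary like the others. Without knockout replicate 1, the share of all tested genes called lower also rose above the 3.5% of the main fit. Whether the rise in called hosts under that setting is particular to the hosts was not tested. The median log2 fold change of the hosts was -0.10, with -0.13 under library-size scaling and between -0.13 and -0.077 without single libraries. Library-size scaling also moved the median of all tested genes, from 0.00 to -0.025. The log2 ratio of their summed CPM was -0.11, with -0.14 under library-size scaling and between -0.15 and -0.071 without single libraries. The sum has no value under DESeq2 or the block. BCDIN3D kept its call under all alternatives (log2 fold change between -1.96 and -1.17). Counts of hosts called higher and of snoRNAs called stayed at 0 under all alternatives run.

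With the date as a replicate block GAS5 kept its call (blocked adjusted p = 0.00175), 1 snoRNA particle gene and 3 protein-coding snoRNA hosts were lower and 7 ribosomal protein genes were higher, and 1 host was called lower as before. Ribosomal protein genes called higher numbered 0 with DESeq2, 1 under library-size scaling and 0 to 8 without single libraries, and those called lower 0 to 6. NMD factors called lower were 1 with DESeq2 and 1 to 3 without single libraries, and protein-coding snoRNA hosts called lower 0 to 3 without single libraries. Of 17 named single genes and snoRNAs with 153 values, 139 kept direction and side of the threshold. Signs changed, at values far from the threshold, for SNORD12C under RLE (-0.0013) and library-size scaling (-0.023). Single left-out libraries changed the sign for SNHG17 (log2 fold changes between -0.026 and 0.012), SNORA73B (-0.050 to 0.17), SNORA71C (-0.16 to 0.25), SNORD12B (-0.078 to 0.16) and SNORD12C (-0.26 to 0.35). Depth limits SNHG18, SNHG14, SNHG23, SNHG24 and most C/D snoRNAs.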

Other observations

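The small RNA libraries hold 1 microRNA gene whose position lies inside a host, miR-6516 in SNHG20, a region that also holds SCARNA16. Its 5p arm had 7 and 0 counts in knockout and 3 and 0 in wild-type, and its 3p arm had 1 and 1 counts in knockout and 0 and 0 in wild-type. These counts are too few to compare groups. SNHG20 itself had 11.1 and 11.2 CPM in knockout and 12.0 and 9.07 CPM in wild-type in RNA-seq.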
